A study of Mus musculus with 12 samples.

Results

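The genes described here encode the proteins of the cytoplasmic ribosome, the particle that translates nuclear-encoded mRNAs. They were taken by name: every gene whose symbol is Rps or Rpl followed by a number (with a letter such as a, x or l where the symbol has one), together with Rpsa, Rplp0, Rplp1 and Rplp2, provided that a probe set of the array was annotated with that symbol alone. Of 22180 genes with such a probe set, 65 were ribosomal protein genes, 25 of the small subunit and 40 of the large subunit. Pseudogenes, the Rps6k kinases and the paralogs whose symbols end in l1 or l2 were left out. A further 12 symbols of the family (Rpl10, Rpl12, Rpl13a, Rpl23, Rpl24, Rpl31, Rpl35a, Rpl36, Rpl36a, Rps15a, Rps2 and Rps21) were annotated only on probe sets that also carry another symbol, and were not analysed here. Rps27a, which encodes a fusion of ubiquitin and a ribosomal protein, was not analysed here either.

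The study asked whether CD4 and CD8 T cells respond differently to linoleic acid, an essential polyunsaturated fatty acid. There were 4 groups of 3 arrays: CD4 T cells from mouse splenocytes cultured with 50 µM linoleic acid, CD4 T cells from control cultures without it, and CD8 T cells from each kind of culture. Whole splenocytes were in culture for 24 h in all groups, so the fatty acid met every spleen cell type, and the T cells were sorted afterwards for total RNA. Each sample was hybridised to 1 MoGene-2_0-st array, and strain, sex, age and any stimulus in the culture are not given in the labels used here. The labels number the replicates 1 to 3 without saying whether they came from separate mice or cultures, so the p-values rest on how far these samples differ among themselves, and that spread may be technical.

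Ribosomal proteins are made in matched amounts and assembled with ribosomal RNA in the nucleolus into a small subunit, which reads the mRNA, and a large subunit, which joins the amino acids. Many of their mRNAs start with a run of pyrimidines, the 5′ terminal oligopyrimidine tract, through which the kinase mTOR and the RNA-binding protein Larp1 control how well these mRNAs are translated. Resting T cells make few new ribosomes, and activation raises ribosome production. Arrays measure mRNA, so a change in translation alone would not be seen in these data.

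RefSeq start windows (GRCm38.p6, 250 bases before to 50 after an annotated start) were available for 50 of the 65 genes. The windows were searched for a run of at least 8 pyrimidines reaching to within 10 bases of an annotated start. Such a run may lie mostly outside these 10 bases, and any start sufficed for a gene with several. It was found for 24 of these 50 genes (48.0%), against 4259 of 27025 genes with a window in the genome (15.8%). Of 3 motifs searched on both strands of the 300-base window, CGGAAG, which ETS-family factors are known to bind, was held by 33 of 50 ribosomal protein genes (66.0%) and by 18.8% of all genes. CTTTCC, which can lie inside a pyrimidine run, was held by 23 of 50 (46.0%) and by 29.3% of all genes. CACGTG, the E-box that Myc binds, was held by 4 of 50 (8.0%) and by 8.1% of all genes. The reverse complement of CGGAAG can also overlap a pyrimidine run. These matches describe the letters of the windows and do not show binding. The windows below run from 40 bases before to 20 bases after the annotated start, 5′ to 3′, with the pyrimidine run in capitals where there is one. They are shown for the genes whose values are followed below: Rps27 and Rpl39l among the larger differences, Rplp0 from the CD8 against CD4 comparison, and Rps6, Rpl4 and Rpl7a as genes with a run and small differences under linoleic acid.
Rps27, chr3:90213629-90213688, minus strand: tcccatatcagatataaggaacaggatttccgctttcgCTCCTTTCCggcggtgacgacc
Rps6, chr4:86857348-86857407, minus strand: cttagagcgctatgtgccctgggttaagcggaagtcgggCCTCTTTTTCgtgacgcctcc
Rpl7a, chr2:26910767-26910826, plus strand: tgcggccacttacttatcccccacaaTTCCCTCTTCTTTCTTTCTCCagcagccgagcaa
Rpl4, chr9:64173347-64173406, plus strand: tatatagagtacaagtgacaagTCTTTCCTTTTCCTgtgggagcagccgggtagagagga
Rplp0, chr5:115559427-115559486, plus strand: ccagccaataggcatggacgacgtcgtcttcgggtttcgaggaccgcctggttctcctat
Rpl39l, chr16:10170188-10170247, plus strand: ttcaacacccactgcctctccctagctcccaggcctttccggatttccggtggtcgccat
Rplp0 and Rpl39l have no run of the required length at the annotated start.

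The deposited values are log2 intensities, and a probe set's value is its signal, which depends on its probes as well as on the mRNA. Of the 65 genes, 59 passed the filter on low values and were tested among 14323 genes. The filter was a 12-array mean above 4.28, the 40th percentile of all 41345 probe sets, named or not. The 6 below it were Rpl32l (2.20), Rpl10l (2.53), Rps15 (3.41), Rpl3l (3.91), Rplp2 (4.10) and Rps4l (4.16), and just above it lay Rps16 (4.47). In mouse, Rpl10l is known as a male germ cell paralog of Rpl10 and Rpl3l as a striated muscle paralog of Rpl3, whereas Rps15 and Rplp2 encode proteins of every ribosome. Over the 12 arrays these 6 genes lay between 1.78 and 4.57. As a scale for low signal, 1373 odorant and vomeronasal receptor genes, known for their part in smell, had a 95th percentile of 5.11, and 56 of the 65 ribosomal protein genes lay above it. The tested genes fell into 36 with a mean above 8 and 23 at or below 8.

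**Figure D1:**
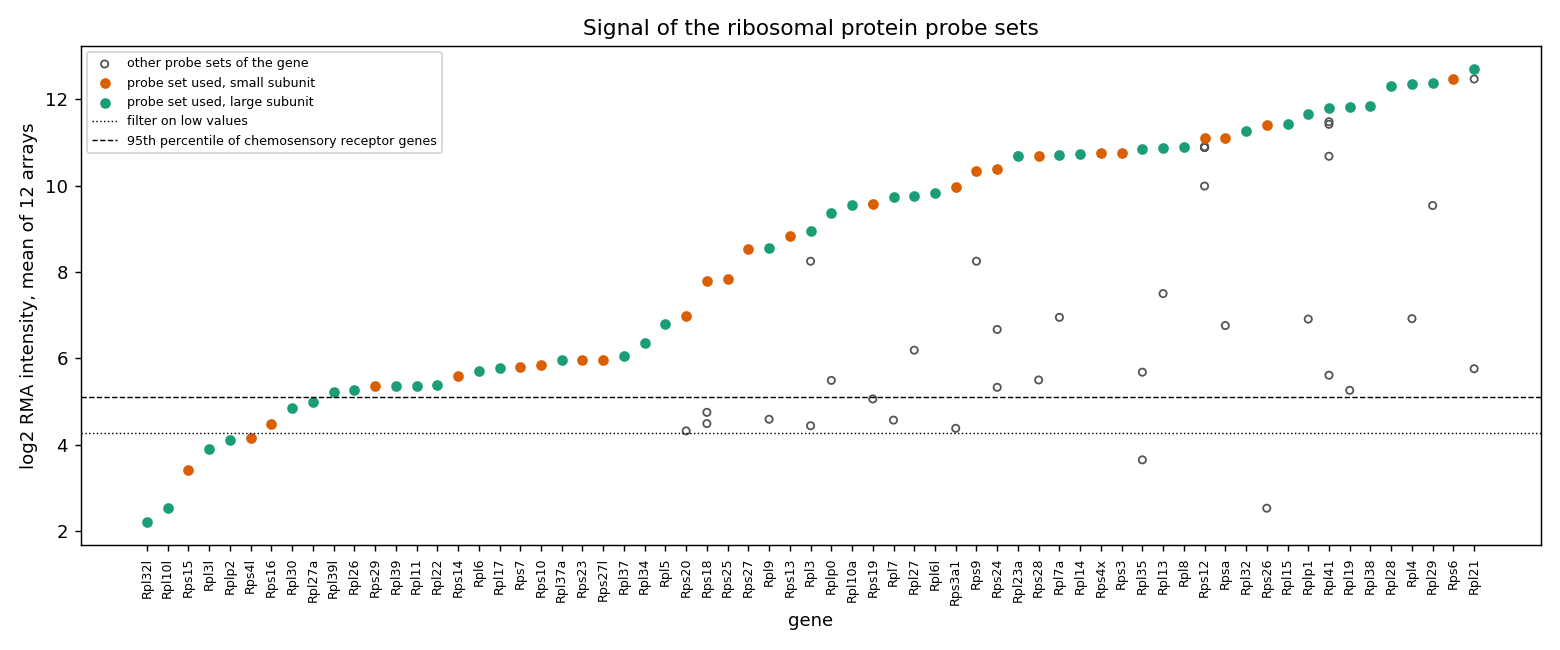
Mean log2 RMA intensity over 12 arrays (y axis) of every probe set of the 65 ribosomal protein genes (x axis, ordered by the probe set used). Filled points are the probe sets used, coloured by subunit, open circles are the other probe sets of the same gene, and the lines mark the filter at 4.28 and the 95th percentile of the receptor genes at 5.11. Of 25 genes with several probe sets, 23 have probe sets more than 2 log2 units apart.

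The signal of a probe set cannot be read as an mRNA level here. Of the 25 genes with several probe sets, 23 had probe sets more than 2 log2 units apart, and the widest gap was 8.88, for Rps26, whose probe sets averaged 11.41 and 2.53. Each gene was therefore followed on its probe set of highest mean, values are compared only between groups within a probe set, and the order of genes by signal is not read as an order of expression. The highest signals were those of Rpl21 (12.71), Rps6 (12.46) and Rpl29 (12.37), and the highest value of a ribosomal protein gene on any array was 12.86, where the highest value of any gene was 13.7. The family has many processed pseudogenes, and probes that also match those were not searched for.

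The genes with high signal were steady over the 12 arrays. The SD of a gene over all 12 arrays lay between 0.05 and 0.21 for the 36 genes above 8 (median 0.13) and between 0.10 and 0.39 for the 23 others (median 0.20), where the median was 0.19 over all genes tested and 0.17 over the 1924 tested genes above 8. Rpl4, a large subunit protein, had the smallest SD (0.05): it gave 12.36, 12.31 and 12.30 in linoleic acid CD4 cells against 12.43, 12.26 and 12.36 in control CD4 cells, and 12.41, 12.34 and 12.38 in linoleic acid CD8 cells against 12.35, 12.39 and 12.41 in control CD8 cells. Those 4 groups overlapped one another. Rps6, the small subunit protein that S6 kinases phosphorylate, and Rpl21 followed with an SD of 0.07 each. The largest SDs of tested genes were those of Rps20 and Rpl30 (0.39 each), both of modest signal, and Rps15, below the filter, had 0.40.

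Facts of the whole set of arrays bear on these values. Cd4 averaged 10.95 and 10.92 in linoleic acid and control CD4 cells against 5.76 and 6.04 in the CD8 cells, Cd8a ran the other way, and the T cell gene Cd3e averaged between 11.41 and 11.66 in the 4 groups. B cell markers were measured too: 11 of 13 averaged above 5.11 in every group, and the mean of the 13 was between 7.01 and 7.63 on the arrays numbered 2 and 3 and between 5.79 and 6.25 on the arrays numbered 1. The third array of linoleic acid CD8 cells stood apart, with a mean of 8.86 over the tested genes above log2 8, where the other 11 arrays gave 8.98 to 9.11, while its mean over the 36 ribosomal protein genes above 8 was the highest of all, 10.85. In sorted populations, fewer cells of a type and less RNA per cell cannot be told apart.

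Linoleic acid left no ribosomal protein gene past the threshold in CD4 T cells (0 of 59 at an adjusted p under 0.05, limma with Benjamini-Hochberg adjustment over 14323 genes), and no gene of any kind passed (0.0%). The differences were small and mostly to the low side: 50 of 59 genes were lower in linoleic acid CD4 cells than in control CD4 cells, with a median log2 difference of −0.09, where 51.4% of all genes were lower and their median was 0.00. The genes of the small subunit had a median of −0.14 (19 of 23 lower) and those of the large subunit −0.08 (31 of 36 lower). By signal, the median was −0.07 for the 36 genes above 8 (32 lower), where the 1924 tested genes above 8 had a median of 0.02, and −0.19 for the 23 others (18 lower). At an unadjusted p under 0.05 there were 4 of 59 genes, against 2.6% of all genes tested: Rps20, Rps14 and Rps27 on the low side and Rpl39l on the high side. That count was 0 without the third linoleic acid array and 2 without the first control array. It was 5 with the replicate block, where 804 of 14323 genes of all kinds had such a p. With array quality weights, whose estimation stopped before it converged, it was 6. These counts are not read as a result about the family. The arrays of the groups did not overlap for 5 genes, all lower (Rpl22, Rpl7, Rps20, Rps27l and Rps4x), against 4.52% of all genes lower without overlap. The 95% interval of the difference lay within ±0.5 for 42 of 59 genes, and for 33 of the 36 above 8. Of the B cell markers 11 of 13 were higher in linoleic acid CD4 cells (median 0.16), with pair differences of their mean of 0.03, 0.16 and 0.26, and of the myeloid markers 9 of 11 were higher (median 0.11). None of these passed, and their part in the members' differences was not tested.

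Rps20, a protein of the head of the small subunit, had the largest difference. It measured 7.03, 6.52 and 6.33 in linoleic acid CD4 cells against 7.44, 7.15 and 7.18 in control CD4 cells, and 7.18, 6.56 and 6.81 in linoleic acid CD8 cells against 7.69, 6.90 and 7.14 in control CD8 cells. In CD4 cells every control array was above every linoleic acid array, while in CD8 cells the groups overlapped. The log2 difference in CD4 cells was −0.63 ± 0.22 (SE, n = 3 arrays a group), with a 95% interval of −1.11 to −0.15, an unadjusted limma p of 0.0143 and an adjusted p of 1.0. With the replicate number as a block the unadjusted limma p was 0.000134 and the adjusted p 0.217. In CD8 cells the difference was −0.39 ± 0.22 (adjusted limma p 0.757), and all 3 same-numbered pairs were on the low side in both cell types (−0.41, −0.63 and −0.85 in CD4 cells, −0.51, −0.33 and −0.33 in CD8 cells). Its other probe set, near the filter at 4.32, gave −0.28 in CD4 cells and −0.02 in CD8 cells.

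Rps14, a small subunit protein whose human gene lies in the segment lost in the 5q- syndrome, was on the low side in both cell types. It measured 5.39, 5.72 and 5.25 in linoleic acid CD4 cells against 5.92, 5.81 and 5.71 in control CD4 cells, with 1 linoleic acid array inside the control range. In CD8 cells it measured 5.28, 5.58 and 5.22 with linoleic acid against 5.84, 5.65 and 5.63 in control, without overlap. The differences were −0.36 ± 0.14 in CD4 cells (adjusted limma p 1.0) and −0.35 ± 0.14 in CD8 cells (unadjusted p 0.0291, adjusted p 0.757). Rps27, a small subunit protein and the paralog of Rps27l, was picked for mention after its values were seen. It measured 8.53, 8.30 and 8.23 in linoleic acid CD4 cells against 8.99, 8.57 and 8.52 in control CD4 cells, where the first linoleic acid array lay just above the lowest control array. Its difference was −0.34 ± 0.14 in CD4 cells (adjusted limma p 1.0) and −0.21 ± 0.14 in CD8 cells (adjusted limma p 0.757). Rps27l, which p53 is known to induce, differed by −0.22 ± 0.12 in CD4 cells and −0.09 ± 0.12 in CD8 cells.

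Rpl39l, a paralog of Rpl39 known in mouse for its part in male germ cell ribosomes, ran the other way. It measured 5.34, 5.21 and 5.49 in linoleic acid CD4 cells against 4.57, 4.84 and 5.30 in control CD4 cells, and 5.26, 5.62 and 5.56 in linoleic acid CD8 cells against 5.13, 4.98 and 5.41 in control CD8 cells. The groups overlapped in both cell types, and all of these signals were close to the receptor genes' 95th percentile. Its difference was 0.45 ± 0.18 in CD4 cells (unadjusted limma p 0.0268, adjusted p 1.0) and 0.31 ± 0.18 in CD8 cells (adjusted limma p 0.757). Rpl39 itself gave −0.07 in CD4 cells and 0.10 in CD8 cells.

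**Figure D2:**
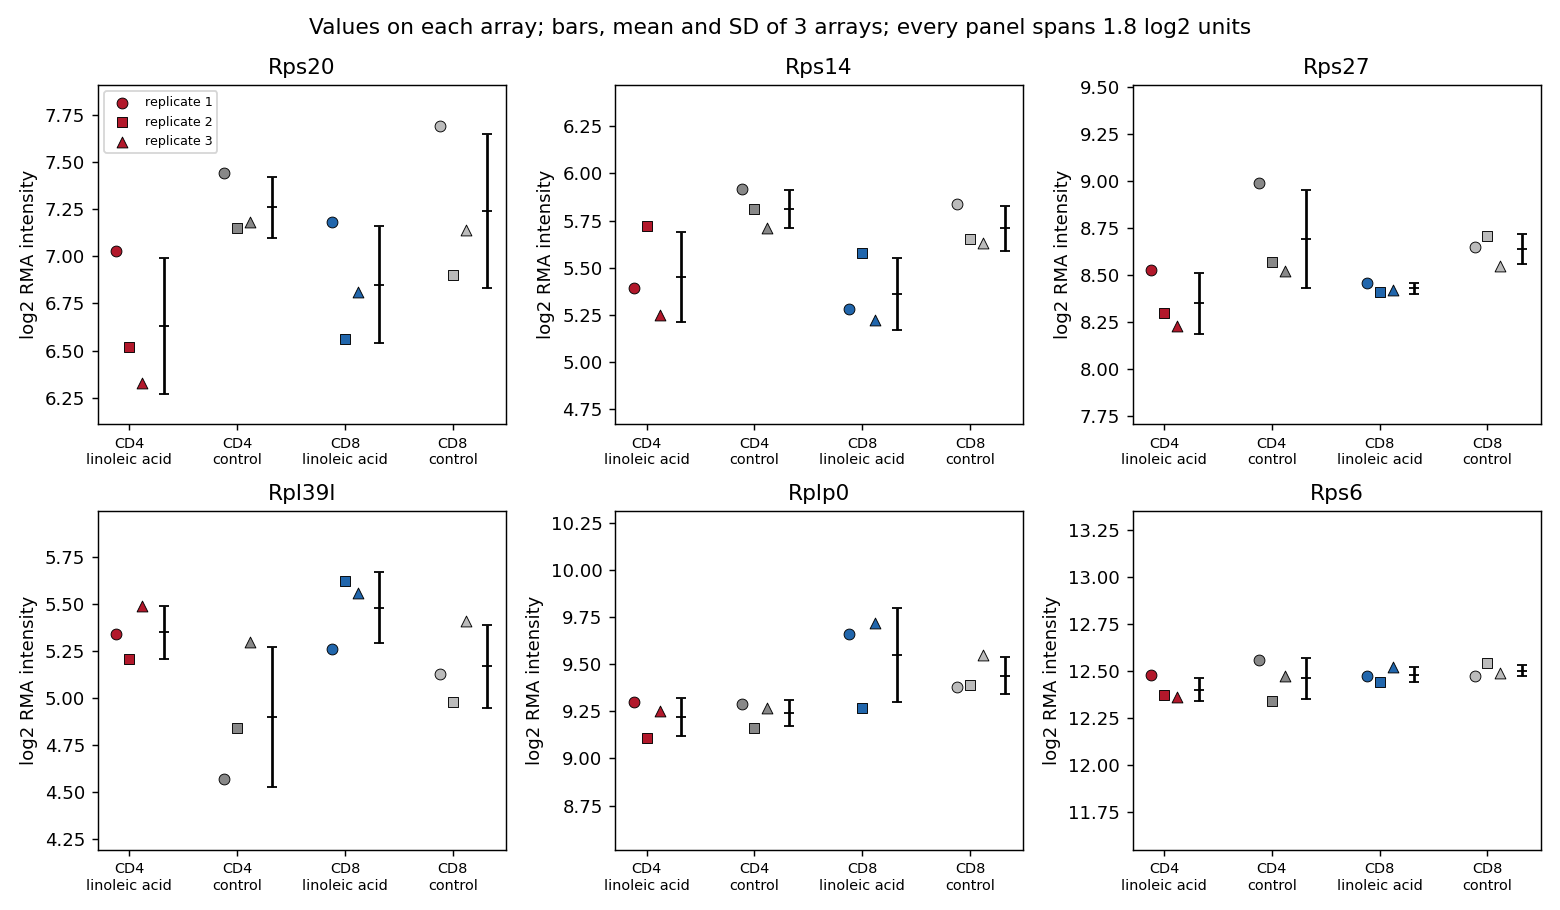
Log2 RMA intensity (y axis) of 6 ribosomal protein genes on each of the 12 arrays, by group (x axis), with the replicate number shown by the marker and the mean ± SD of 3 arrays beside each group; each panel spans the same number of log2 units on its own range. Rps20 in CD4 cells has every control array above every linoleic acid array, while Rps6 stays between 12.34 and 12.56 on all arrays.

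The other members of known interest gave small differences under linoleic acid. Rps6 measured 12.48, 12.37 and 12.36 in linoleic acid CD4 cells against 12.56, 12.34 and 12.47 in control CD4 cells, a difference of −0.05 ± 0.10 with a 95% interval of −0.28 to 0.17. Rps19, the gene most often mutated in Diamond-Blackfan anaemia in humans, differed by 0.01 ± 0.12 in CD4 cells and 0.05 ± 0.12 in CD8 cells. Rpsa, a small subunit protein also known as a laminin receptor, differed by −0.15 ± 0.12 in CD4 cells and −0.02 ± 0.12 in CD8 cells. Rpl5 and Rpl11, which bind the 5S ribosomal RNA and, when free, Mdm2, differed by −0.09 ± 0.21 and −0.22 ± 0.19 in CD4 cells and by 0.04 ± 0.21 and 0.00 ± 0.19 in CD8 cells. Rpl22, which mouse αβ T cell development requires, measured 5.38, 5.28 and 5.15 in linoleic acid CD4 cells against 5.42, 5.39 and 5.47 in control CD4 cells, without overlap by a margin of 0.01, and its difference was −0.16 ± 0.12. The stalk proteins Rplp0 and Rplp1, which recruit elongation factors, differed by −0.02 ± 0.13 and −0.11 ± 0.13 in CD4 cells. Rpl7a, a large subunit protein, is not among the members of known interest and was picked for its pyrimidine run and its small differences. It measured 10.60, 10.58 and 10.66 in linoleic acid CD4 cells against 10.68, 10.48 and 10.68 in control CD4 cells. In CD8 cells it measured 10.75, 10.73 and 10.87 with linoleic acid against 10.68, 10.90 and 10.89 in control. Its groups overlapped in both cell types, with differences of 0.00 ± 0.11 and −0.04 ± 0.11. None of these differences passed the test, and the intervals of Rpl5 and Rpl11 reach past 0.5 log2 units on the low side.

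In CD8 T cells linoleic acid again left 0 of 59 genes past the threshold, with 0.0% of all genes called. Here 40 of 59 ribosomal protein genes were lower in linoleic acid cells than in control cells, with a median log2 difference of −0.02, where 63.1% of all genes were lower with a median of −0.06. The median was −0.01 for the 36 genes above 8 (22 lower), where the 1924 tested genes above 8 had −0.10, and −0.10 for the 23 others (18 lower). Rps14 alone had an unadjusted p under 0.05, 1 of 59 genes against 5.08% of all genes. The arrays did not overlap for Rps13, Rps14 and Rps27, all lower, against 5.7% of all genes lower without overlap. The 95% interval lay within ±0.5 for 48 of 59 genes. The count at an unadjusted p under 0.05 was 0 without the third linoleic acid array or without the first control array. Without the first linoleic acid array it was 5. It was 4 with the replicate block, where 1927 of 14323 genes of all kinds had such a p. With array quality weights, whose estimation stopped before it converged, it was 10, and 213 genes of all kinds passed the adjusted threshold. These counts are not read as a result about the family. Of the B cell markers 9 of 13 were higher with linoleic acid (median 0.10) and of the myeloid markers 10 of 11 (median 0.11), and their part was not tested. The count of lower genes depended on the array that stood apart and on scale: it was 51 of 59 with a median of −0.06 without the third linoleic acid array, 25 of 59 with a median of 0.01 without the second, and 49 of 59 with a median of −0.08 when each array was centred on its median, which moved the median of all genes to −0.11.

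**Figure D3:**
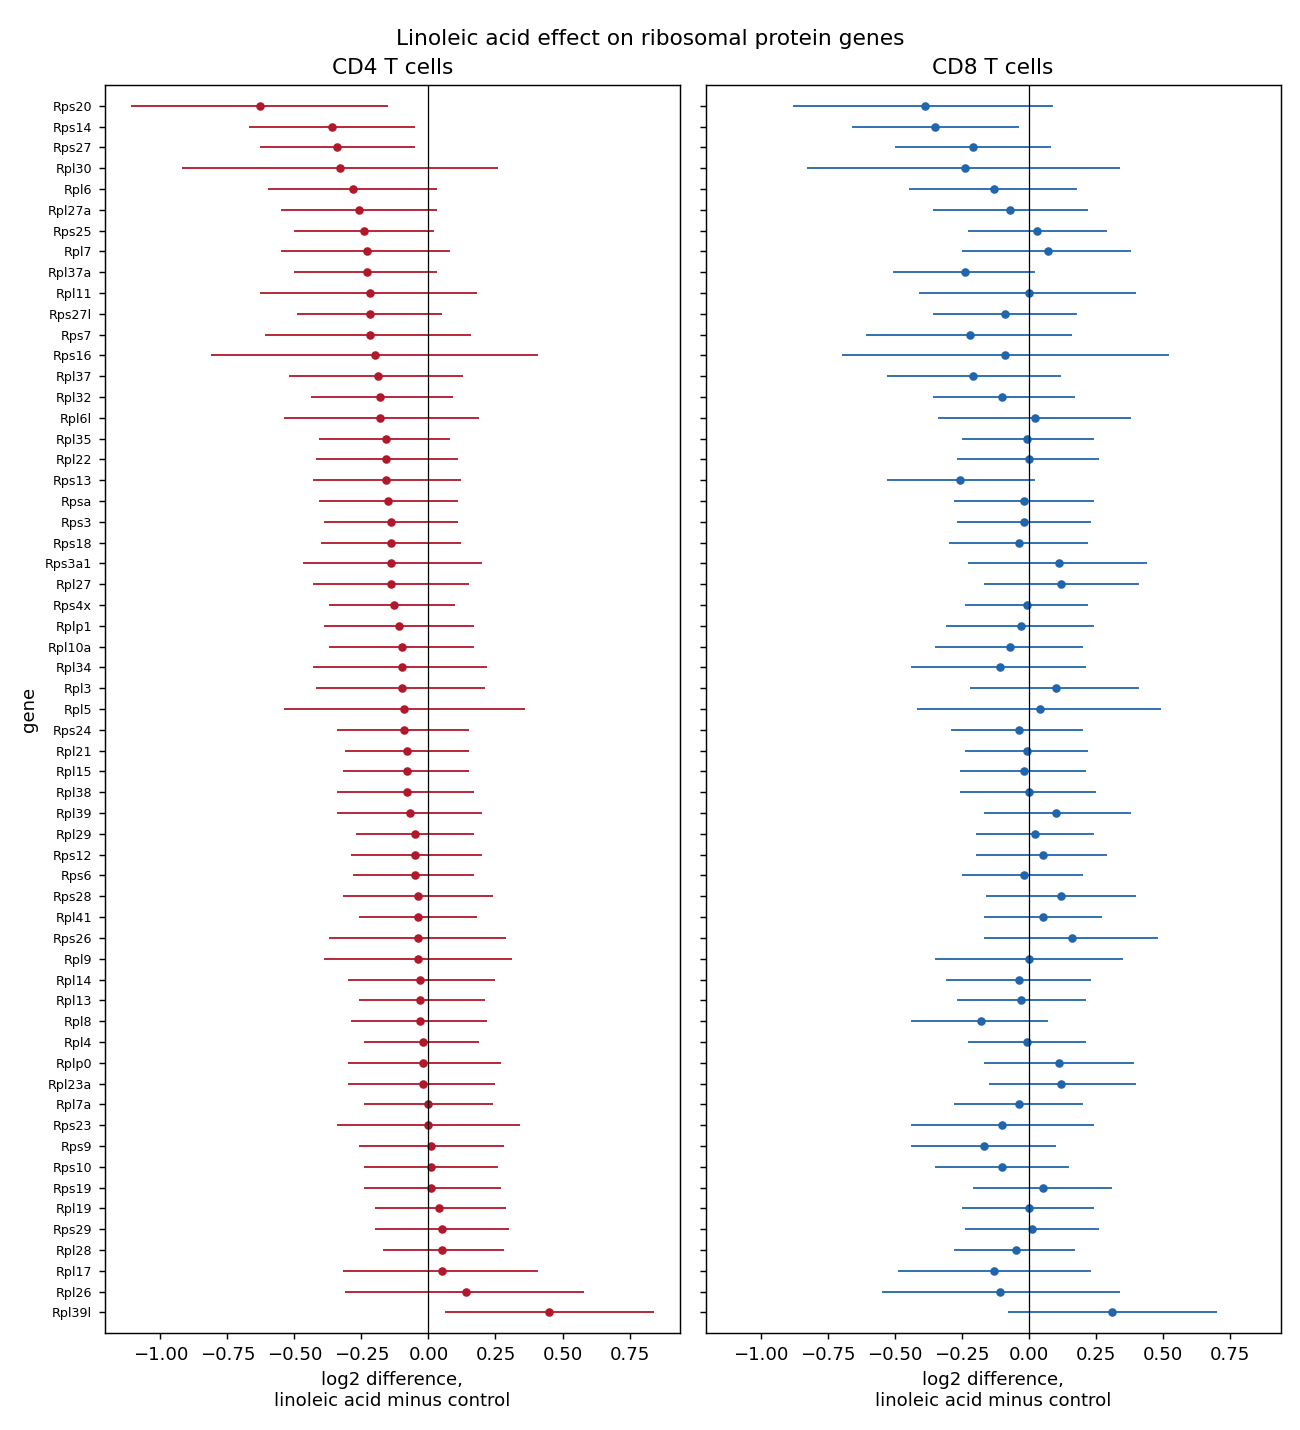
Log2 difference, linoleic acid minus control (x axis), of the 59 tested ribosomal protein genes (y axis, ordered by the CD4 difference), in CD4 T cells on the left and CD8 T cells on the right. Points are limma estimates and lines their 95% intervals from 3 arrays a group. In CD4 cells 50 points and in CD8 cells 40 points lie below 0, and no gene passed the adjusted threshold in either.

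Read by same-numbered pairs of arrays, 18 of 59 genes were lower in all 3 linoleic acid CD4 samples and 1 (Rpl39l) was higher in all 3, against 14.1% of all genes lower and 13.5% higher. In CD8 cells 11 were lower and 3 higher in all 3 pairs, against 21.5% and 10.3% of all genes. No gene was lower in all CD4 pairs and higher in all CD8 pairs. The linoleic acid differences of CD4 and CD8 cells come from separate arrays: 34 of 59 genes (57.6%) were lower in both, against 32.9% of all genes. With 50 of 59 genes lower in CD4 and 40 of 59 in CD8 cells, about that share of members would arise without agreement gene by gene. Across the 59 genes the 2 sets of differences had a Pearson r of 0.60, against 0.12 across all genes, as a description over genes that share arrays and replicate numbers. Without Rps20, Rps14, Rps27 and Rpl39l the r was 0.26 over 55 genes. It was 0.22 over the 36 genes above 8 and 0.74 over the 23 others.

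The question of the study, whether the response differs between the cell types, was put to each gene as the linoleic acid effect in CD4 cells minus that in CD8 cells. No ribosomal protein gene passed (0 of 59, and 0.0% of all genes), and 0 of 59 had an unadjusted limma p under 0.05, against 2.35% of all genes. The median was −0.08, with 42 of 59 genes below 0, where all genes had a median of 0.04 and 42.9% below 0. With centred arrays the members' median was −0.02 and that of all genes 0.10. The largest differences were −0.30 ± 0.21 for Rpl7 and 0.24 ± 0.29 for Rpl26, both large subunit proteins. The probe set used for Rpl7 gave −0.23 in CD4 and 0.07 in CD8 cells. Its other probe set, near the filter at 4.57, gave −0.22 and −0.42. For Rps20 the difference between the effects was −0.24 ± 0.32, with a 95% interval of −0.92 to 0.45, and for Rps14 −0.01 ± 0.20, with an interval of −0.45 to 0.43. The interval lay within ±0.5 for 28 of 59 genes, and the intervals of the other 31 genes reached past 0.5 in at least one direction.

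The family's mean on each array shows the same small spread. Over the 59 genes it was 8.84, 8.68 and 8.66 in linoleic acid CD4 cells, 8.89, 8.74 and 8.87 in control CD4 cells, 8.90, 8.74 and 8.90 in linoleic acid CD8 cells, and 8.90, 8.86 and 8.89 in control CD8 cells. The linoleic acid and control groups overlapped in both cell types. By same-numbered pairs, taken before rounding, the linoleic acid minus control difference of this mean was −0.05, −0.06 and −0.20 in CD4 cells, all to the low side, and 0.00, −0.13 and 0.00 in CD8 cells. The CD8 minus CD4 difference was 0.06, 0.06 and 0.23 with linoleic acid, all to the high side. In control culture it was 0.01, 0.12 and 0.03, but the arrays numbered 2 correlated there at only −0.01 once group means were taken off. The 36 genes above 8 moved together from array to array: after the group means were taken off, the median correlation over their 630 pairs was 0.53 and 90.6% of pairs were above 0, against 0.20 over the 253 pairs of the other 23 genes. Over mitochondrial ribosomal protein genes the median was 0.33, with 80.8% of pairs above 0. Other genes above 8 were not examined in this way, so the shared movement is not read as particular to the family. These pairs share the same 12 arrays.

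**Figure D4:**
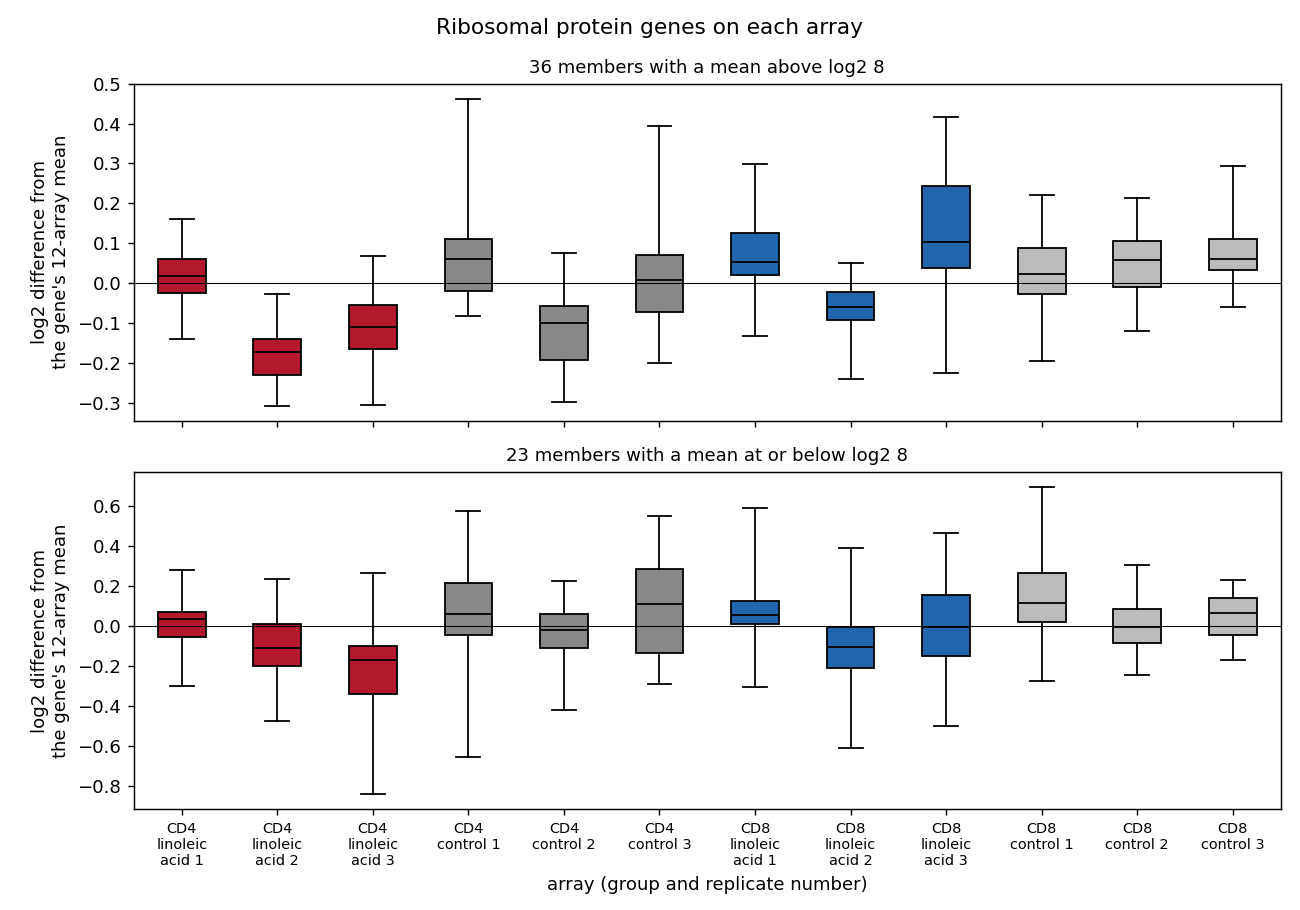
Difference of each ribosomal protein gene from its own 12-array mean (y axis, log2) on every array (x axis), for the 36 genes above log2 8 (top) and the 23 at or below 8 (bottom). Boxes are quartiles with the median, and whiskers reach the lowest and highest gene. In the top panel the second array of linoleic acid CD4 cells lies lowest and the third array of linoleic acid CD8 cells highest.

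The 2 T cell types were also compared directly. In control culture 41 of 59 ribosomal protein genes were higher in CD8 than in CD4 cells, with a median of 0.05, where 50.4% of all genes were higher with a median of 0.00. None passed (0 of 59 against 1.95% of all genes), and 0 of 59 had an unadjusted limma p under 0.05 against 9.37% of all genes. The arrays did not overlap for 7 genes, all higher in CD8 cells (Rpl10a, Rpl13, Rpl32, Rpl34, Rpl41, Rplp0 and Rps12), against 8.52% of all genes higher without overlap. The largest difference was that of Rpl34, 0.31 ± 0.15 (adjusted limma p 0.581). The intervals were within ±0.5 for 51 of 59 genes and for all 36 above 8. Without the second control CD4 array the median was −0.01 and 28 of 59 genes were higher.

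In linoleic acid culture 51 of 59 genes were higher in CD8 than in CD4 cells, with a median of 0.13, where 45.9% of all genes were higher and the median was −0.02 over all genes and −0.10 over the tested genes above 8. None passed (0 of 59 against 2.03% of all genes). By same-numbered pairs 27 of 59 genes were higher in all 3 CD8 samples, against 17.0% of all genes. The arrays did not overlap for 6 genes (Rpl27, Rpl29, Rpl41, Rpl7a, Rps18 and Rps25), all higher, against 6.31% of all genes higher without overlap. The median was 0.09, with 48 of 59 genes higher, without the third linoleic acid CD8 array, the one that stood apart.

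Rplp0, the scaffold of the ribosomal stalk and a common reference gene for quantitative PCR, was the 1 member of 59 with an unadjusted p under 0.05 in this comparison, against 11.8% of all genes. That count was 0 without the third linoleic acid CD8 array or the second linoleic acid CD4 array and with centred arrays. It was 6 with the replicate block, where 2732 of 14323 genes of all kinds had such a p. Without the second linoleic acid CD8 array it was 9. With array quality weights, whose estimation stopped before it converged, it was also 9, and 2299 genes of all kinds passed the adjusted threshold. These counts are not read as a result about the family. Rplp0 measured 9.66, 9.27 and 9.72 in CD8 cells against 9.30, 9.11 and 9.25 in CD4 cells, both with linoleic acid, and 9.38, 9.39 and 9.55 in CD8 cells against 9.29, 9.16 and 9.27 in CD4 cells, both in control culture. The arrays overlapped with linoleic acid and did not in control culture. The difference was 0.33 ± 0.13 with linoleic acid, with a 95% interval of 0.04 to 0.61 (unadjusted limma p 0.0268, adjusted p 0.333, and 0.119 with the replicate block), and 0.20 ± 0.13 in control culture (adjusted limma p 0.766). Its other probe set, at 5.49, gave 0.08 and 0.45 in the same order. In both cultures 36 of 59 members (61.0%) were higher in CD8 cells, against 26.4% of all genes. For the members about that share would arise without agreement gene by gene, with 41 of 59 higher in control and 51 of 59 in linoleic acid culture. The median CD8 minus CD4 difference of the 13 B cell markers was −0.48 with linoleic acid and −0.32 in control culture, with 0 past the threshold in either by limma, or 7 and 4 lower in CD8 cells with the replicate block, and their part in these differences was not tested.

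**Figure D5:**
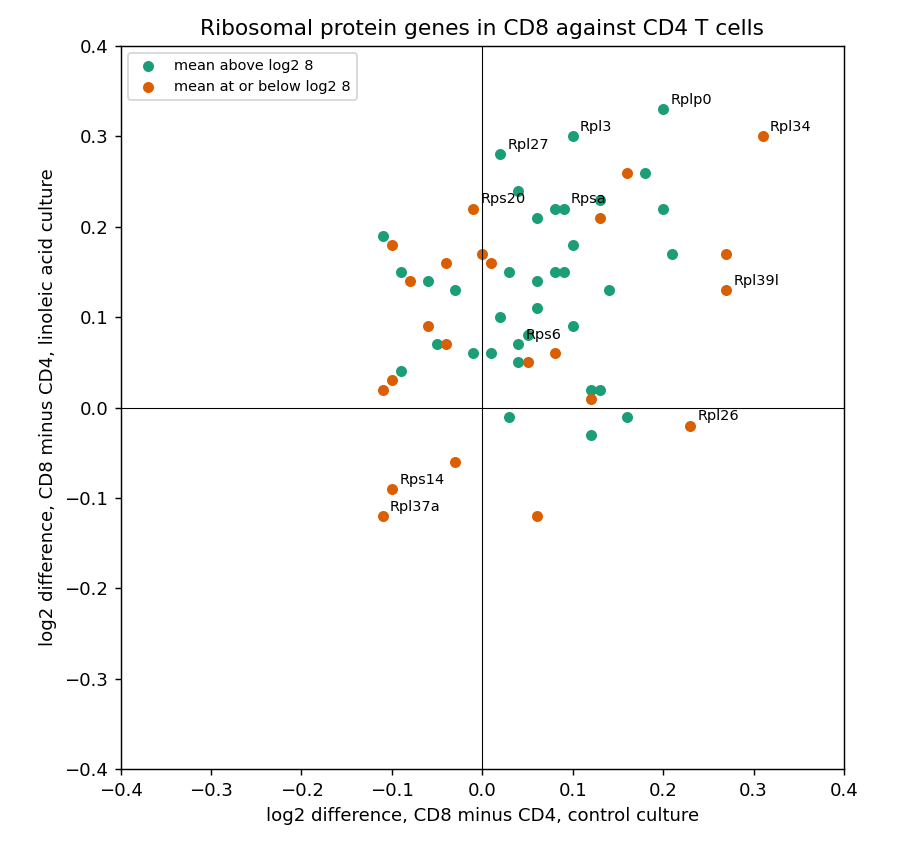
Log2 difference, CD8 minus CD4, of the 59 tested ribosomal protein genes in linoleic acid culture (y axis) against control culture (x axis), coloured by signal. Most points lie above and to the right of 0, with 36 genes higher in CD8 cells in both cultures, and none passed the adjusted threshold.

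Other genes of ribosome production give the setting. The mitochondrial ribosome has its own proteins, and of 70 such genes tested (symbols Mrpl or Mrps with a number) 64 were lower in linoleic acid CD4 cells with a median of −0.15 and 65 in linoleic acid CD8 cells with a median of −0.17, with 0 past the threshold in either by limma and 10 and 6 at an unadjusted p under 0.05, all lower, where 2.6% and 5.08% of all genes had such a p in either direction. In CD4 cells 20 of these 70 were lower without overlap, against 4.52% of all genes, and in CD8 cells 9 of 70, against 5.7%. Of 47 tested ribosome assembly factors, nucleolar proteins that process rRNA and build the subunits, 36 were lower with linoleic acid in CD4 cells (median −0.08) and 41 in CD8 cells (median −0.11), again with 0 past the threshold by limma and 1 at an unadjusted p under 0.05 in each. Of 15 tested elongation and initiation factors and related genes whose mRNAs carry the same pyrimidine tract, 7 were lower in CD4 cells (median 0.00) and 13 in CD8 cells (median −0.07). Of 15 tested genes of RNA polymerase I and its factors, 8 were lower in CD4 cells (median −0.02) and 12 in CD8 cells (median −0.07). Of 23 tested genes of growth signalling to translation, 8 were lower in CD4 cells (median 0.05) and 18 in CD8 cells (median −0.15). The last 3 lists had 0 genes past the threshold under linoleic acid by limma and 0 at an unadjusted p under 0.05. Fau, which encodes a ubiquitin-like fusion with a small subunit protein and falls outside the naming rule, gave 0.06 ± 0.12 in CD4 cells and −0.02 ± 0.12 in CD8 cells. The paralogs Rpl22l1 and Rpl7l1 gave −0.08 ± 0.16 and −0.14 ± 0.11 in CD4 cells and 0.24 ± 0.16 and −0.12 ± 0.11 in CD8 cells.

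Between the cell types single genes of ribosome production passed the test, where 1.95% of all genes passed in control culture and 2.03% in linoleic acid culture. At such shares few of 59 genes would be called, so 0 of 59 ribosomal protein genes is not read as a contrast with these lists. In control culture Rrp12 (0.73 ± 0.16, adjusted limma p 0.0335) and Bysl (0.54 ± 0.13, adjusted limma p 0.04), both needed to mature the small subunit, were higher in CD8 than in CD4 cells, and Wdr12, a large subunit assembly factor, was lower (−0.67 ± 0.14, adjusted limma p 0.0228). The other 44 tested assembly factors did not pass, and the list's median was 0.12 with 33 of 47 higher. Myc, a transcription factor known to drive ribosome production, was higher in CD8 cells in control culture (0.74 ± 0.15, adjusted limma p 0.0177). Its difference in linoleic acid culture was 0.41 ± 0.15 (adjusted limma p 0.273). In linoleic acid culture Rrp12 was again higher in CD8 cells (0.77 ± 0.16, adjusted limma p 0.0256), the 1 of 47 assembly factors to pass there. Polr1a, the largest subunit of RNA polymerase I, was lower (−0.67 ± 0.12, adjusted limma p 0.0077).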

How the data were processed

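Sorted mouse T cell RNA was measured on 12 Affymetrix arrays of 1 colour. The deposited values are log2 intensities per probe set, made with RMA per the submitters' processing notes. RMA subtracts background, equalises array distributions and summarises probes. The sources used here do not give its software, version or summary level. Probe sets with 1 annotated symbol (23521 of 41345) were kept, 1814 with several symbols and 16010 with none were left out, and a gene was followed on its probe set of highest mean. Genes above the 40th percentile of the means of all 41345 probe sets (14323 of 22180) were tested in limma 3.58.1 (R 4.3.3). The tests came from 1 fit of 4 groups with lmFit and eBayes (8 residual and 5.67 prior degrees of freedom). They were two-sided, with Benjamini-Hochberg adjustment and a threshold of 0.05. The step was tested on simulated data. Tables and figures were made with Python 3.11.15, pandas 2.3.3 and matplotlib 3.10.9. Start windows came from RefSeq (GRCm38.p6). The number of arrays, 3 a group, limits the precision.

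Members and lists were chosen with earlier results of these data known. Genes were named by rule: members of known interest, members at the extremes of mean and SD, those with non-overlapping arrays and an unadjusted p under 0.05, and up to 3 genes of smallest p in each other list. Other members that are named, among them Rps27, Rpl7a, Rpl34, Rpl7, Rpl26, Rpl41 and Rpl3, fall outside these rules and were mentioned with their values known. After group means were taken off, arrays of the same number correlated at 0.61, 0.19 and 0.32 for linoleic acid against control in CD4 cells, at 0.43, 0.19 and 0.42 in CD8 cells, at 0.58, 0.26 and 0.52 for CD8 against CD4 cells in linoleic acid culture, and at 0.54, −0.01 and 0.42 in control culture. Gene by gene, same-numbered pairs were therefore described only in the first 3 of these comparisons. The same numbers link all 4 groups, so pairing in these 3 implies pairing in control culture, and what the numbers mark is not known. The main fit did not use them, and the replicate block was an alternative in every comparison. Alternatives were the replicate block, other filters, the mean of all probe sets, centring, repeated quantile normalization, a trended robust prior, array weights, a fit of 2 groups, and leaving out each array.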

Additional observations from a re-analysis of the deposited data

How the results depend on the processing

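The count of ribosomal protein genes past the threshold was 0 in all 5 comparisons under every alternative run (59 members tested, 65 without a filter and 56 with the 60th percentile filter), also with the replicate block, where the smallest adjusted limma p of a member was 0.217 for linoleic acid in CD4 cells, 0.297 in CD8 cells, 0.643 for the difference between them, 0.197 for CD8 against CD4 cells in control culture and 0.119 in linoleic acid culture; the block changed no member's call and no median. Over all alternatives the smallest was 0.0606, for linoleic acid in CD8 cells with array quality weights, whose estimation stopped before it converged. Over all genes, the block called 1 gene for linoleic acid in each cell type (0 without it), and 630 and 798 for CD8 against CD4 cells in control and linoleic acid culture (280 and 291 without it). Array weights called 1 and 213 for linoleic acid in CD4 and CD8 cells and 2299 for CD8 against CD4 cells in linoleic acid culture, and fitting only the groups compared called 138 there. Leaving out 1 array gave 176 to 223 in control culture and 150 to 322 in linoleic acid culture. The members at an unadjusted p under 0.05 numbered 0 to 6 for linoleic acid in CD4 cells, 0 to 10 in CD8 cells and 0 to 9 for CD8 against CD4 cells in linoleic acid culture. With the replicate block 804, 1927 and 2732 of 14323 genes had such a p, against 5, 4 and 6 of 59 members. The median log2 difference lay between −0.16 (without the first linoleic acid CD4 array) and −0.05 (without the third) for linoleic acid in CD4 cells, with 41 to 55 of 59 genes lower where 59 were tested. It lay between −0.11 (array weights) and 0.01 (without the second linoleic acid CD8 array) in CD8 cells, with 25 to 54 genes lower, so that direction was not settled. It lay between −0.13 and −0.02 for the difference between the effects, between −0.01 and 0.09 for CD8 against CD4 cells in control culture, and between 0.07 and 0.19 in linoleic acid culture, with 44 to 54 genes higher. Rps20 in CD4 cells ranged from −0.83 to −0.46, and Rps14 in CD8 cells from −0.46 to −0.15, the last with array weights. The cause of these shifts was not tested. Signal limits what can be read of Rps16, Rpl30 and Rpl27a, which passed the filter below the receptor genes' 95th percentile.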

Other observations

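Probe sets of the same gene gave a second reading of several members. For Rpl41 the 4 probe sets with means between 10.68 and 11.80 gave CD8 minus CD4 differences of 0.18 to 0.23 in linoleic acid culture and 0.09 to 0.20 in control culture, while the probe set at 5.61 gave −0.18 and 0.04. For Rpl21 the probe sets at 12.71 and 12.47 both gave 0.06 in linoleic acid culture, and the one at 5.76 gave −0.04. For Rpl3 the probe sets at 8.95, 8.25 and 4.44 gave 0.30, 0.04 and 0.19 there. Rps12 has 8 probe sets, of which 6 hold identical values on all 12 arrays (tolerance 1e-09) and count as 1 reading, as do both of Rpl23a and 2 of the 3 of Rps19.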
